A study of Homo sapiens with 4 samples.

Results

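The genes described here are 10 neighbours on the long arm of chromosome 12, in band q24, whose counts stood high in the neuroblastoma line NGP. In chromosomal order they are ANAPC5, KDM2B, SETD1B, BCL7A, MLXIP, DIABLO, VPS33A, CLIP1, ZCCHC8 and KNTC1. They were chosen by symbol because a run of neighbouring genes there had high levels, so the levels themselves are a description and carry no test. All 10 had a row among the 25693 human genes of the table, and all 10 passed the filter on low counts. From the start of ANAPC5 to the end of KNTC1 the stretch spans 1.32 Mb (chr12:121308245-122626396 in GRCh38, GENCODE release 29). It holds 25 annotated protein-coding genes, of which 23 had a row, so 13 genes of the stretch other than the members were measured too.

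NGP is an established human neuroblastoma line with amplified MYCN. Cells were synchronised by serum starvation and then given Nutlin-3 for 24 h, a small molecule that keeps MDM2 from binding p53, or its solvent ethanol as control, and single cells were captured in droplets on the ddSeq device. Both groups are the same line with the same starvation, and each consisted of 2 libraries, which differed in the dilution of the added ERCC spike-in RNAs (1000-fold or 10000-fold). The counts sit in 500 columns, 250 for each treatment, whose names carry the treatment and not the library, so each treatment was summed to 1 pool without replicates. No test between treatments was possible, no p-value is given, and every interval below covers counting error only.

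The 2 pools held 1342134 human counts with ethanol and 1301232 with Nutlin-3. Of the 250 column names of each treatment, 219 occurred in both, and 31 in only 1. Column totals ran from 306 to 13502 counts with ethanol and from 253 to 13501 with Nutlin-3. They fell into a large and a small class on either side of 4000 counts, with 113 large and 137 small columns per treatment, and small columns carried 11.3% of the human counts with ethanol and 10.8% with Nutlin-3. All 10 markers of adrenergic neuroblastoma were present at 89.1 to 368 CPM (counts per 1000000, scaled to the pool's human total). Markers of fibroblasts, leukocytes and epithelium that had a row lay at 0.372 to 66.2 CPM, none of them at 0. Their summed counts with ethanol and Nutlin-3 were 163 and 155 for fibroblasts (5 of 6 markers), 26 and 51 for leukocytes (2 of 4), of which LYZ made up most, and 20 and 35 for epithelium (3 of 4).

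The members share a place, not a pathway. ANAPC5 belongs to the anaphase-promoting complex, the ubiquitin ligase that drives cells out of mitosis, and KNTC1 (also called ROD) to the RZZ complex, which brings dynein and checkpoint proteins to kinetochores. KDM2B, SETD1B and BCL7A act on chromatin. MLXIP (MondoA) is a transcription factor that responds to glucose, DIABLO (Smac) antagonises the inhibitors of apoptosis once it leaves mitochondria, VPS33A helps vesicles to fuse with endosomes and lysosomes, CLIP1 tracks growing microtubule ends, and ZCCHC8 is the scaffold of a complex that hands nuclear RNA to the exosome. High expression of a block of neighbours in a tumour line is commonly looked at together with DNA copy number, which was not analysed here.

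Start regions of the members were read from RefSeq (GRCh38.p14), each reaching from 250 bases before to 50 after a gene's start. Entries matched 7 of the 10 members, with 13 start regions in all. SETD1B, VPS33A and KNTC1 had no entry. The regions of the 2 members with the highest levels and of ZCCHC8, which had the second lowest fold change, are shown to set a start dense in CpG beside less dense ones. Capitals mark each CpG, the dinucleotide that KDM2B itself recognises when unmethylated, and the strand is that of the gene (MLXIP plus, at chr12:122078506-122078805, ANAPC5 minus, at chr12:121352362-121352661, ZCCHC8 minus, at chr12:122500883-122501182). For ANAPC5 the RefSeq start lies inside the longer GENCODE gene.
MLXIP: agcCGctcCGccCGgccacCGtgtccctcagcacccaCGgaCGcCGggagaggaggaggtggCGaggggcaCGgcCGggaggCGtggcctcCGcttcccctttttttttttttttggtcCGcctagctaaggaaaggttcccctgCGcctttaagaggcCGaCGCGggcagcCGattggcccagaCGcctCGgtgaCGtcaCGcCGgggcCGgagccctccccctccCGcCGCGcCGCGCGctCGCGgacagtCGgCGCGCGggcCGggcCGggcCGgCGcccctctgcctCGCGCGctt
ANAPC5: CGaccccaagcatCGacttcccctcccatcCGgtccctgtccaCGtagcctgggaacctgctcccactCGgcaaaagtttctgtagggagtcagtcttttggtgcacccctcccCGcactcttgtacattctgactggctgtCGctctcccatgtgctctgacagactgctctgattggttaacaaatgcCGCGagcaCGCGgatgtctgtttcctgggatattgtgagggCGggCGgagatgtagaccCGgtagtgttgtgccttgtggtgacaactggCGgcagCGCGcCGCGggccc
ZCCHC8: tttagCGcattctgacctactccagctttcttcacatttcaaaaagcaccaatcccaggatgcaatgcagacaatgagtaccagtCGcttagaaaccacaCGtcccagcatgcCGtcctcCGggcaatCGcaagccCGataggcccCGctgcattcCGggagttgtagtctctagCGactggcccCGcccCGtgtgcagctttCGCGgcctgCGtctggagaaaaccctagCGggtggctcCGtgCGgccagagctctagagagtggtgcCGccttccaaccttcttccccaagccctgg

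MLXIP's region holds 43 CpG in its 300 bases, at percentile 95.4 of all regions of that length, and those of ANAPC5 and ZCCHC8 hold 19 each, at percentile 58.0. Over the 13 member regions the median was 33 CpG, with a lowest of 13 (a DIABLO start) and a highest of 54 (CLIP1), beside a median of 14 over all 35116 regions of the same length. The letters GGGCGG, on either strand, were found in 12 of the 13 member regions and in 45.0% of all regions. CCAAT, on either strand, was in 7 of the 13 and in 34.6% of all, and TATAAA in 0 of the 13 and 11.5% of all. None of these motifs contains another. Several of the regions belong to the same gene (4 to KDM2B and 4 to DIABLO), and a match is a description of sequence only.

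Levels of the members ran from 115 to 296 CPM as the mean of both pools, with a median of 195 CPM, against 61.6 CPM for the median of 14677 protein-coding genes with a count. MLXIP and ANAPC5 stood highest, SETD1B and DIABLO lowest. Of the members, 5 reached 200 CPM, a level that 1.29% of the protein-coding genes reached. Since the members were chosen for their level, nothing is read from that share. In the plot of members and neighbours the 2 treatments lie close together at nearly every gene.

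**Figure D1:**
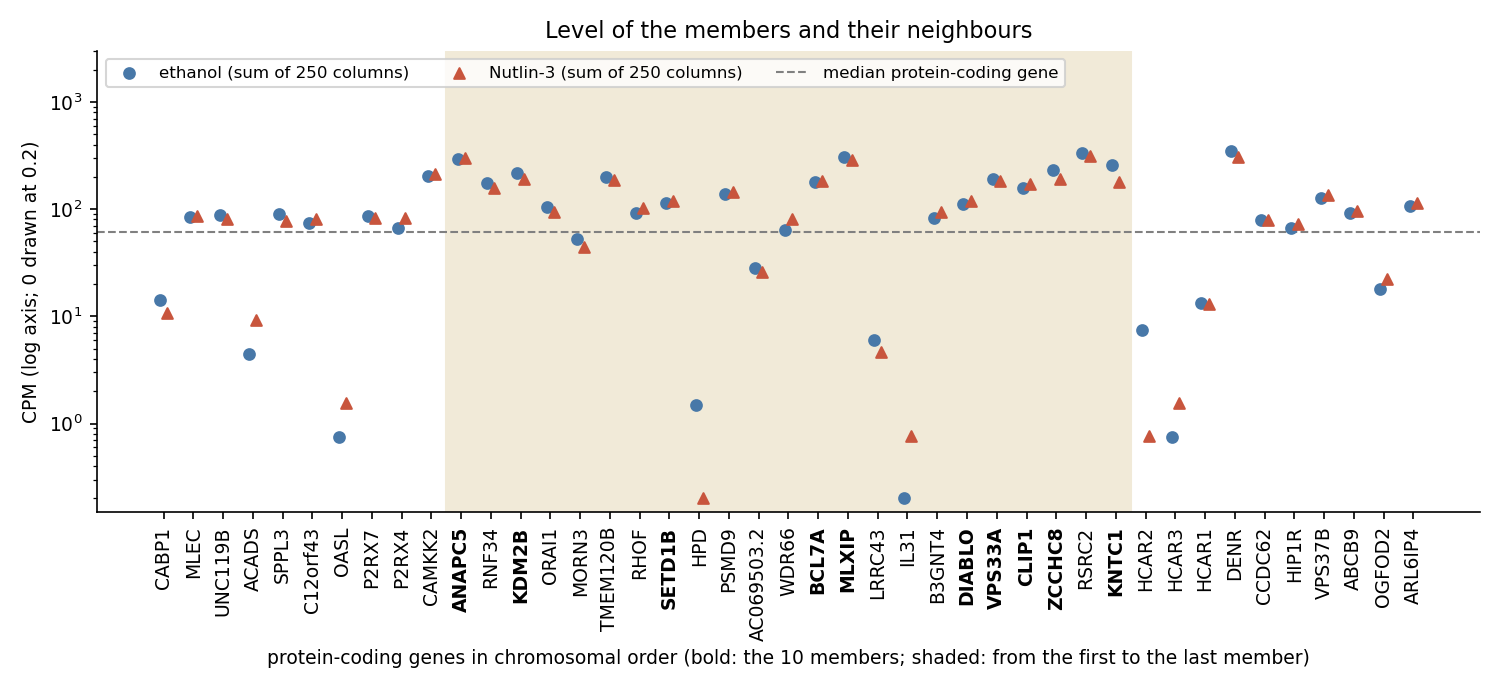
Levels of protein-coding genes from 10 before to 10 after the stretch, in chromosomal order, in CPM on a log axis, with circles for the ethanol pool, triangles for the Nutlin-3 pool and the dashed line at the median protein-coding gene (61.6 CPM). The 10 members (bold) lie between 115 and 296 CPM as means of both pools, while some genes among them lie under 10 CPM.

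ANAPC5 (ENSG00000089053, chr12:121308245-121399896, minus strand) had 391 ethanol and 387 Nutlin-3 counts, or 291 CPM (95% Poisson interval 263 to 322) and 298 CPM (269 to 329). MLXIP (ENSG00000175727, chr12:122078722-122147347, plus strand) had 410 and 374 counts, or 305 CPM (276 to 336) and 288 CPM (259 to 318). Both stood at percentile 99.4 of the protein-coding genes, and their intervals overlapped between treatments.

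The chromatin genes covered a wider range. KDM2B (ENSG00000089094, chr12:121429097-121581015, minus strand), which recruits a Polycomb complex to CpG-rich starts, had 290 ethanol and 247 Nutlin-3 counts, or 216 CPM (192 to 242) and 190 CPM (167 to 215). BCL7A (ENSG00000110987, chr12:122019422-122062044, plus strand), a subunit of the BAF chromatin remodeller, had 239 counts in each pool, or 178 and 184 CPM. The histone methyltransferase gene SETD1B (ENSG00000139718, chr12:121804180-121832584, plus strand) had 154 and 155 counts, or 115 CPM (97.3 to 134) and 119 CPM (101 to 139). SETD1B thus lay well below its chromatin neighbours, at percentile 91.7 against 98.7 for KDM2B and 98.3 for BCL7A.

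Among the trafficking, cytoskeletal and apoptosis genes, VPS33A (ENSG00000139719, chr12:122229564-122266521, minus strand) had 258 ethanol and 239 Nutlin-3 counts, or 192 and 184 CPM. CLIP1 (ENSG00000130779, chr12:122271432-122422632, minus strand) had 212 and 222 counts, or 158 and 171 CPM. DIABLO (ENSG00000184047, chr12:122207663-122226568, minus strand) had 149 and 156 counts, or 111 CPM (93.9 to 130) and 120 CPM (102 to 140). DIABLO was the lowest member, at percentile 91.1, although VPS33A, its next neighbour among the members, stood at 98.5.

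The last members, ZCCHC8 and KNTC1, lie at the far end of the stretch with RSRC2 between them. ZCCHC8 (ENSG00000033030, chr12:122471600-122501073, minus strand) had 314 ethanol and 249 Nutlin-3 counts, or 234 CPM (209 to 261) and 191 CPM (168 to 217). KNTC1 (ENSG00000184445, chr12:122527246-122626396, plus strand) had 349 and 232 counts, or 260 CPM (233 to 289) and 178 CPM (156 to 203). Both were higher in ethanol, and for KNTC1 alone among the 10 the Poisson intervals of the 2 pools did not overlap.

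Summed over both pools, the order was MLXIP (784 counts), ANAPC5 (778), KNTC1 (581), ZCCHC8 (563), KDM2B (537), VPS33A (497), BCL7A (478), CLIP1 (434), SETD1B (309) and DIABLO (305). Neighbours in this order had overlapping Poisson intervals except at 2 places, between ANAPC5 and KNTC1 and between CLIP1 and SETD1B. MLXIP and ANAPC5 thus stood above the other members, and SETD1B and DIABLO below them. Among the 6 genes between, the levels still differed, since the intervals of KNTC1, ZCCHC8 and KDM2B did not overlap that of CLIP1.

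Because the kit primes at the 3' end, counts were compared between genes without division by length, but length was looked at. Merged exons of all 10 members were longer than the median protein-coding gene's 5.02 kb, from 6.57 kb for BCL7A to 18.6 kb for CLIP1. Across the 14677 genes, which are not independent replicates, Spearman's rho between level and exon length was 0.14. Counted per kb of merged exons the members lay less high, at a median percentile of 78.4, from 48.2 for CLIP1 to 86.9 for BCL7A, or 8.85 to 27.6 CPM per kb against 9.33 for the median gene.

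The 13 other protein-coding genes of the stretch were not all high. RSRC2, between ZCCHC8 and KNTC1, had 321 CPM, above every member. TMEM120B followed with 192 CPM, the ubiquitin ligase gene RNF34 with 166 and the proteasome assembly gene PSMD9 with 141. At the other end, IL31, a cytokine gene of T cells, had 0.384 CPM, HPD, an enzyme of tyrosine breakdown in the liver, 0.745, and LRRC43 5.29. The median of the 13 was 88.6 CPM, and 3 of them were under 10 CPM. Of 13 genes of other types, such as long noncoding RNAs, 7 were under 10 CPM, while LINC01089 reached 242 CPM.

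Just outside the ends, CAMKK2, a kinase gene directly before ANAPC5, had 207 CPM, and P2RX4, the next one out, 75.0. HCAR2, a receptor gene directly after KNTC1, had 4.11 CPM, from 10 ethanol and 1 Nutlin-3 counts. After it came HCAR3 and HCAR1 at 1.14 and 13.2 CPM and then DENR, a gene of translation re-initiation, at 325 CPM. The 10 protein-coding genes before the stretch had a median of 80.4 CPM and the 10 after it 74.6 CPM, close to the 68.1 CPM of chromosome 12. High levels thus did not stop at the first and last member, since CAMKK2 lay in the members' range and DENR above it. Past the 10 genes after the stretch, PITPNM2 had 33.2 CPM, and then levels were high again. MPHOSPH9 had 187 CPM, C12orf65 147, CDK2AP1 172 and SBNO1 329, so the medians of the 10 flanking genes do not mark an end of high levels.

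A running median over 11 neighbouring protein-coding genes placed the stretch among the highest of the genome. Its highest window, centred on DIABLO, had a median of 181 CPM, 2.91 times the 62.2 CPM of the median window, and ranked 4 of 14416. Windows near MDM2 on the same chromosome held the first ranks, up to 199 CPM. Outside chromosome 12 the highest window had 118 CPM, on chromosome 17 at KPNA2. On chromosome 12, 25 windows exceeded that value, 6 of them centred within the stretch and others just after it, at HCAR2 and HCAR3. Inside the stretch the running median was not flat, since it was down to 88.6 CPM at WDR66, BCL7A and MLXIP. Their windows hold HPD, LRRC43 and IL31 together, as well as AC069503.2 and WDR66. The highest window, at DIABLO, also holds LRRC43 and IL31, but not HPD. Counted per kb of merged exons the highest window was 2.08 times the median window and ranked 628. With windows of 21 genes, the highest one centred in the stretch had 117 CPM, at PSMD9. The window at CCDC62, after the stretch, was then higher, with 131 CPM.

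**Figure D2:**
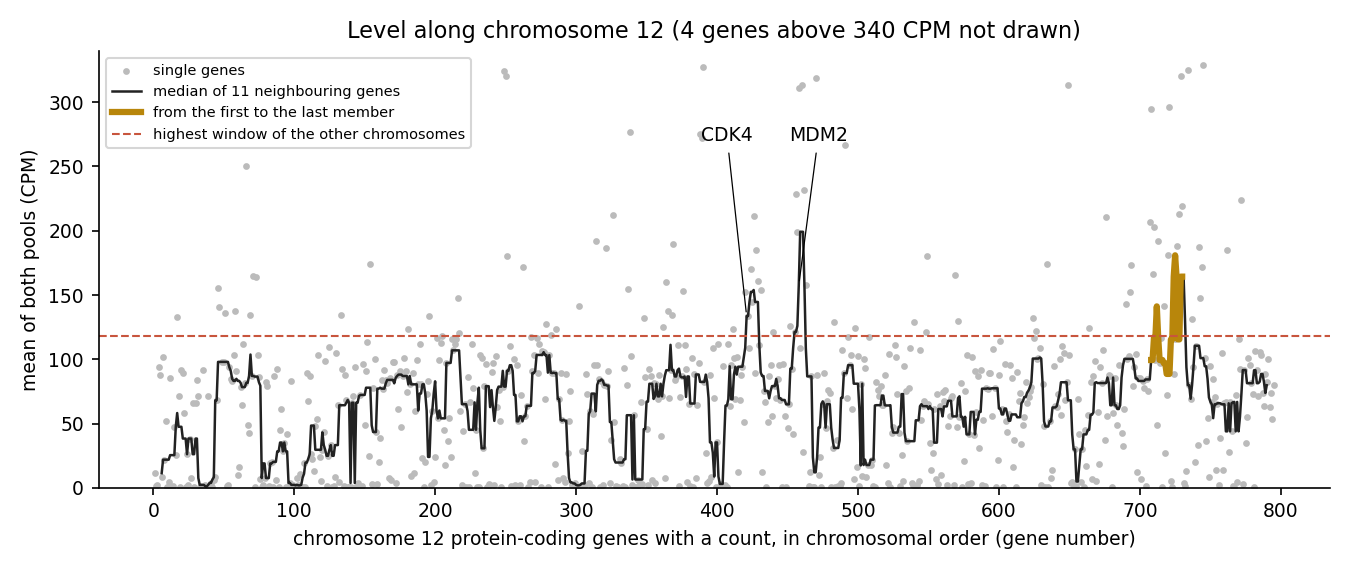
Mean level of both pools (CPM) of single genes (grey) and the median of 11 neighbouring protein-coding genes (line) along chromosome 12 in gene order, with the stretch from ANAPC5 to KNTC1 drawn thick and 4 genes above 340 CPM not drawn. The line exceeds the highest window of the other chromosomes (dashed, 118 CPM) near CDK4, near MDM2 and in the stretch, where it peaks at 181 CPM. It also does so just after the stretch, at HCAR2 (164 CPM) and HCAR3 (131 CPM).

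For comparison, 26 protein-coding genes within 500 kb of CDK4 had a median of 98.3 CPM, 7 within 500 kb of MDM2 had 199 CPM, and 3 within 500 kb of MYCN had 137 CPM. The members' median of 195 CPM was near that around MDM2. MDM2 itself, a p53 target, had 311 CPM, and its log2 fold change under Nutlin-3 was 0.72 (95% counting interval 0.52 to 0.93). These regions were cut by distance and the members by symbol, so the medians are set side by side without a test.

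Levels were also set against partners of each member that lie elsewhere in the genome. Over the 10 lists, 93 partner genes had a row, with a median of 89.7 CPM, and 0 of them reached 200 CPM. In 9 of the 10 lists the member was the highest gene. DIABLO was the exception, at 115 CPM below CYCS, the gene of cytochrome c, at 169 CPM, and BIRC5 (survivin), at 131 CPM. Per kb of merged exons, the member was above its partners' median in 6 of the 10 lists. The members were chosen for their level and the partners were not, so members would tend to stand higher in any case. Nothing is therefore read from the count of lists or from the ratios below.

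**Figure D3:**
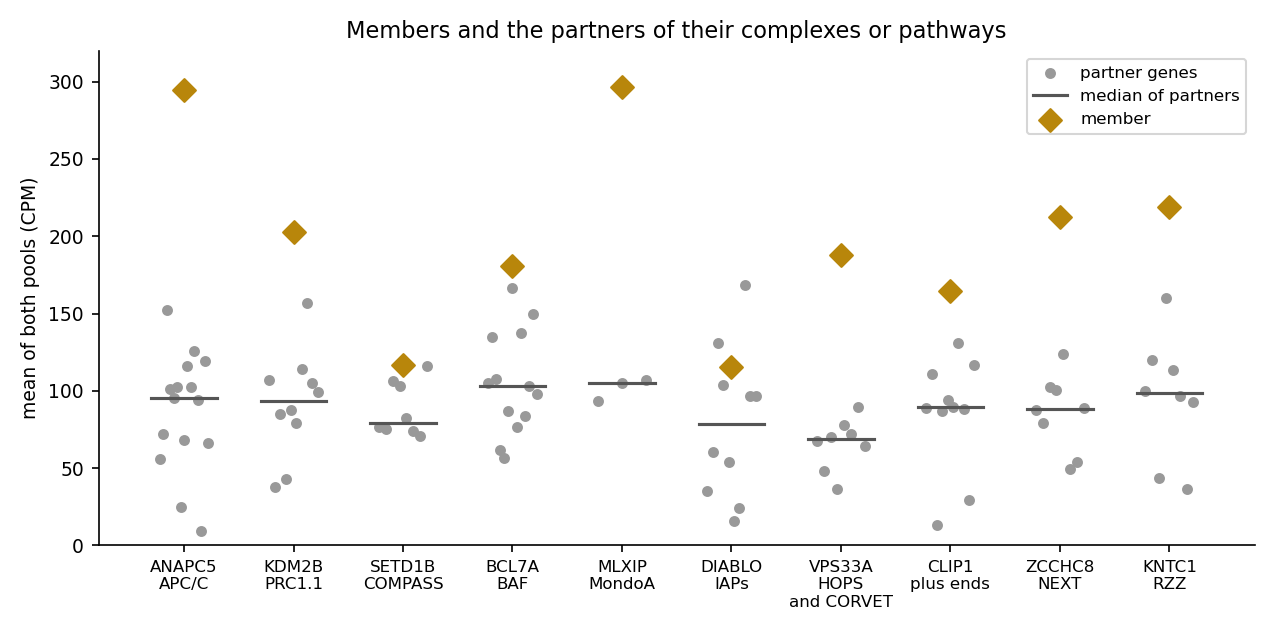
Mean level of both pools (CPM) of each member (diamond), of its partner genes (grey points) and of the partners' median (bar), for 10 complexes or pathways. In 9 lists the diamond is above every grey point, and in the DIABLO list 2 partners lie above it. The members were chosen for their level and the partners were not.

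ANAPC5, at 294 CPM, stood at 3.09 times the median of 15 subunits and activators of the anaphase-promoting complex (95.3 CPM), whose highest was ANAPC11 at 152 CPM and lowest CDC26 at 9.08 CPM. MLXIP stood at 2.83 times the median of MLX, its dimer partner, and the target genes TXNIP and ARRDC4, which spanned 93.6 to 107 CPM. VPS33A, at 188 CPM, was 2.72 times the median of 8 other genes of the vesicle-tethering complexes, which ran from VPS18 at 36.7 to VPS41 at 89.7 CPM. Per kb of merged exons these gaps differed. MLXIP was then below all 3 of its listed genes, at 21.3 CPM per kb against their median of 24.6, and 5 of the 15 genes were above ANAPC5. VPS33A had 0 of 8 above it, the only list of which this was so.

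ZCCHC8 stood at 2.41 times the median of 8 genes of nuclear RNA surveillance, from its own partner RBM7 at 49.5 CPM to NCBP2 at 124 CPM. KNTC1 stood at 2.23 times the median of 8 kinetochore checkpoint genes, and ZW10, which binds it directly in the RZZ complex, had 36.2 CPM against 219 CPM for KNTC1. KDM2B was 2.17 times the median of 10 Polycomb partners, from BCORL1 at 37.5 to SKP1 at 157 CPM. Ratios were smaller for CLIP1 (1.84, partners from CLIP2 at 12.9 to MAPRE1 at 131 CPM), BCL7A (1.75, from BCL7C at 56.6 to SMARCA4 at 167 CPM), DIABLO (1.47) and SETD1B (1.47, from WDR5 at 70.7 to WDR82 at 116 CPM). SETD1B and WDR82 differed by less than their counting intervals.

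The response to Nutlin-3 was then compared along the stretch. KNTC1 was lower with Nutlin-3, with a log2 fold change of -0.54 (-0.79 to -0.30), or 0.687 times its ethanol level. It was the only member past the size limit of 0.32 on the log2 scale toward lower levels, and 0 members were past it toward higher levels. Of the 8844 genes whose mean reached 50 CPM, 3.79% were past the limit on the lower and 3.77% on the higher side. Of all 8844 genes, 53 had a lower fold change than KNTC1. Among the 166 genes of 200 to 400 CPM, 1 did. A lower pooled count does not separate fewer cells that express the gene from less RNA in each cell.

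ZCCHC8 had a log2 fold change of -0.29 (-0.53 to -0.04), short of the limit, with an interval that left out 0. Together with KNTC1, 2 of the 10 members had such an interval on the lower side and 0 on the higher side, against 2.17% and 2.11% of the 8844 genes. Of those genes, 6100 lay at 50 to 100 CPM, below every member, and fewer counts give wider intervals. ZCCHC8 had -0.20 (-0.49 to 0.10) in the large columns alone and -0.42 (-0.89 to 0.03) in the small, so both intervals included 0. RSRC2, between ZCCHC8 and KNTC1, had -0.10 (-0.30 to 0.10). The other 8 members lay between -0.19 for KDM2B and 0.11 for DIABLO and CLIP1, with intervals that included 0. The median over the 10 members was -0.02, beside -0.01 over all 8844 genes, and 5 members were below 0, as were 52.8% of those genes. With ERCC counts as library size all 10 members were past the limit on the lower side, as were 84.9% of the 8844 genes. The members' median was then -0.49, while that of all 8844 genes moved to -0.48, so the directions given here are relative to the other human genes. The 2 libraries of each treatment differed in ERCC dilution, and columns cannot be assigned to them. Pooled ERCC counts thus also depend on each library's share of the columns, and no change in RNA amount is read from this shift.

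**Figure D4:**
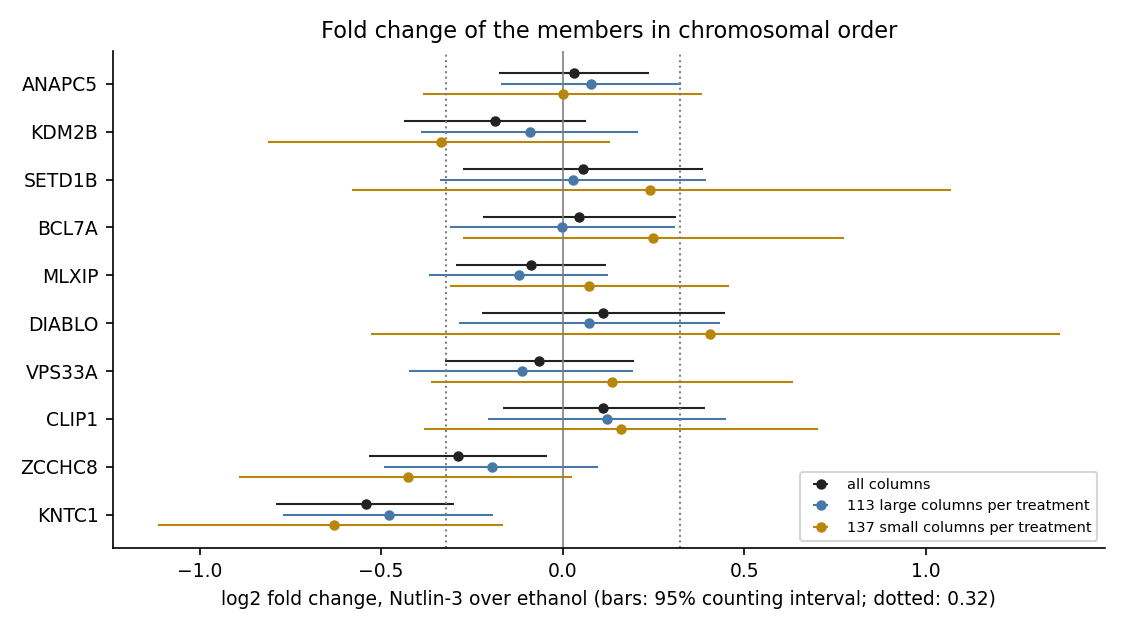
Log2 fold change of each member, as Nutlin-3 relative to ethanol, from all columns, the 113 large and the 137 small columns per treatment, with bars for the 95% counting interval and dotted lines at 0.32 on either side of 0. KNTC1 lies below 0 with its whole interval in all 3 sets, from -0.48 in the large to -0.63 in the small columns.

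Outside the members, 1 of the 8 other protein-coding genes of the stretch with at least 50 CPM was past the limit, WDR66 with a log2 fold change of 0.36 (-0.06 to 0.79) from 85 ethanol and 106 Nutlin-3 counts, and 0 were lower by that size. Over all 8844 genes these shares were 3.77% and 3.79%. DENR had -0.19 (-0.39 to 0.01). The 7 flanking genes before the stretch with that level had a median of 0.01 and the 6 after it 0.07. None of these was as low as KNTC1, but only 0.599% of the 8844 genes were lower than it, so nothing is read from that.

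Among KNTC1's checkpoint partners, all 6 with at least 50 CPM were below 0, as were 52.8% of the 8844 genes. Only BUB1B among the 6 had an interval that left out 0. The median of the 6 was -0.25, and 2 were past the limit on the lower side. These were BUB1B, with -0.46 (-0.79 to -0.13) from 186 ethanol and 131 Nutlin-3 counts, and TTK, with -0.34 (-0.71 to 0.03) from 145 and 111 counts. Its direct RZZ partners had -0.43 for ZW10 (-1.06 to 0.17) and -0.21 for ZWILCH (-0.59 to 0.16). Over all lists, 3 of the 79 partners with at least 50 CPM were past the limit on the lower and 1 on the higher side, beside the 3.79% and 3.77% of all genes, and their median was -0.05. BCL7C was the third lower gene, with -0.38 (-0.87 to 0.10), and the 1 higher gene was CLIP3 with 0.36 (-0.03 to 0.75).

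None of the DIABLO list was past the limit in either direction among the 7 genes with at least 50 CPM. DIABLO itself had 0.11 (-0.22 to 0.45), XIAP, its best-known binding partner, -0.03 (-0.40 to 0.33), and CYCS 0.01 (-0.27 to 0.28). CASP9, the initiator caspase of the mitochondrial pathway, was below that level, with 23 ethanol and 40 Nutlin-3 counts and 0.83 (0.07 to 1.65). APAF1, also below it, went the other way, with 50 and 43 counts and -0.17 (-0.79 to 0.45). No direction is therefore read from the genes of the list below that level. ANAPC5's partners likewise showed 0 of 13 past the limit, with a median of -0.03. Only 3.79% of the 8844 genes were past it on the lower and 3.77% on the higher side. Nothing is therefore read from the lack of such genes in lists this short.

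Single columns showed how the pooled levels arise. In large columns most expressed genes had about 1 count per column: over 8266 protein-coding genes of at least 50 CPM the median of the mean was 0.973 (ethanol) and 0.938 (Nutlin-3). The median gene had 2 or more counts in 4.42% of large columns in both. MLXIP had 2 or more counts in 79.6% of the large ethanol columns and 68.1% of the large Nutlin-3 columns, ranging from 1 to 18 counts with a median of 2 in ethanol and from 1 to 10 with a median of 2 in Nutlin-3. For ANAPC5 these shares were 76.1% and 73.5%, with 1 to 12 and 1 to 10 counts. SETD1B and DIABLO had 2 or more counts in 11.5% to 16.8% of large columns.

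KNTC1 had 2 or more counts in 65.5% of the large ethanol columns and 38.1% of the large Nutlin-3 columns. Its counts ran from 1 to 8 with a median of 2 in ethanol, and from 1 to 4 with a median of 1 in Nutlin-3, so the treatments overlapped column by column. The variance of its counts over these columns was 0.691 and 0.367 times the mean, below the value of 1 that Poisson counting gives. The other members also lay below 1 in large columns, down to 0.118 for SETD1B with ethanol. MLXIP with ethanol was the exception, at 1.41. The Poisson and binomial intervals given for the members therefore need not describe the spread over columns. KNTC1 had a single count in 39 of the 113 large ethanol and 70 of the 113 large Nutlin-3 columns. ZCCHC8 went the same way by less, with 2 or more counts in 54.9% and 46.9%. MLXIP (79.6% and 68.1%), VPS33A (48.7% and 40.7%), ANAPC5, KDM2B and SETD1B were lower with Nutlin-3 too, while BCL7A, CLIP1 and DIABLO were higher. Over 8266 protein-coding genes the 95th percentile of this share was 31.0% with ethanol and 26.5% with Nutlin-3. All large columns had at least 1 count of every member except 2 ethanol columns without DIABLO and 1 Nutlin-3 column without SETD1B.

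**Figure D5:**
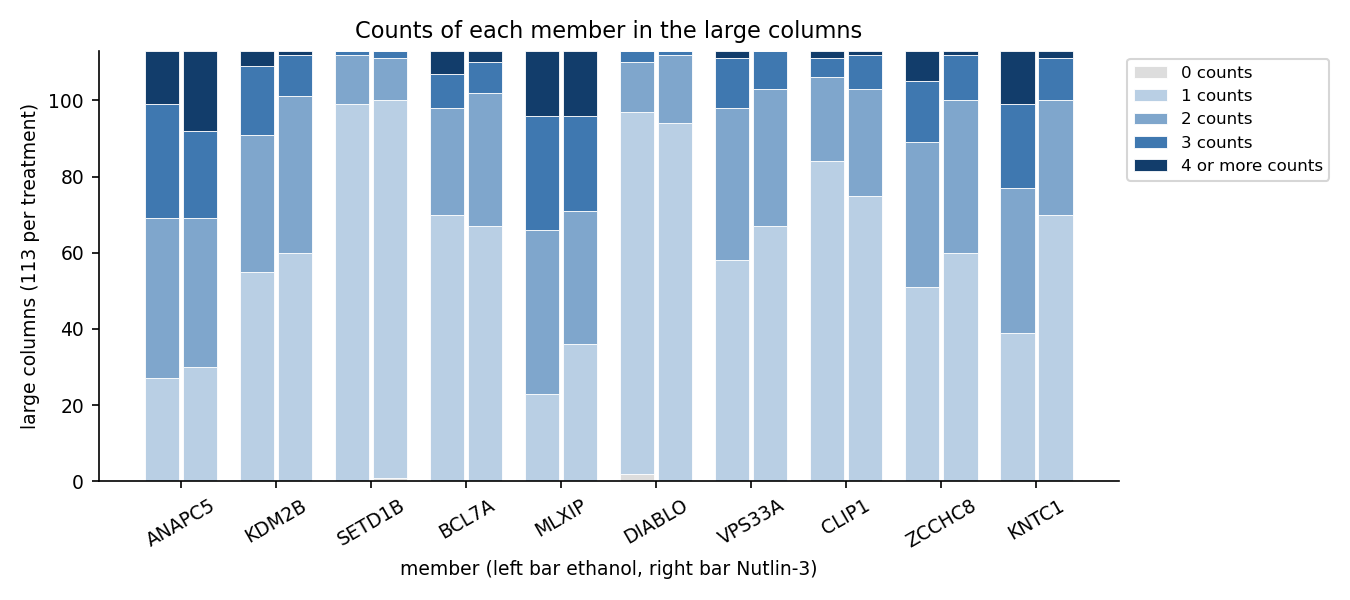
Number of large columns (113 per treatment) with 0, 1, 2, 3 or at least 4 counts of each member, with the ethanol bar on the left and the Nutlin-3 bar on the right. KNTC1 has a single count in 39 ethanol and 70 Nutlin-3 columns, and SETD1B and DIABLO have a single count in most columns.

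Members drew a large part of their counts from the small columns, as did other genes at their level. Small columns gave 30.4% of the counts of ZCCHC8 and 29.9% of those of ANAPC5, with a median of 28.3% over the members and a lowest of 13.8% for DIABLO, beside 5.41% for the median protein-coding gene. Genes outside the stretch at 150 to 350 CPM had a median of 27.8% (377 genes), and those within the members' whole range of levels, which takes in SETD1B and DIABLO, a median of 21.3% (1213 genes). In small columns alone the members' median was 512 CPM against 41.8 for the median gene, a ratio of 12.3, and in large columns alone 156 against 65.9 CPM, a ratio of 2.37. How far the members stand above other genes therefore differed by class of column, and their median percentile was 98.3 in the small and 98.6 in the large.

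After thinning columns at random to 700 counts, which left 194 ethanol and 187 Nutlin-3 columns, KNTC1 was detected in 27.8% of ethanol columns (exact binomial interval 21.7 to 34.7) and 19.8% of Nutlin-3 columns (14.3 to 26.2). In all 250 columns at full depth, it was detected in 83.6% and 68.8%. In large columns alone at 700 counts it was detected in 17 and 15 of 113 columns, a smaller gap between the treatments. ANAPC5 was seen in 28.4% and 27.3%, MLXIP in 28.9% and 26.7%, and DIABLO in 6.19% and 9.09% at 700 counts. The intervals overlapped between treatments for all 10 members at that depth. A line of 1 cell type has no cells that lack these genes, so the share that free RNA gives could not be set beside them.

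Over the 226 large columns, Pearson's r between CPM of pairs of members had a median of 0.15 over 45 pairs, from -0.18 to 0.57. The genes outside the stretch whose CPM followed the summed CPM of the members most closely were MT-ND1 (0.82), CDK4 (0.82) and MT-CYB (0.82). Both treatments enter these values, and the sum also followed the number of counts per detected gene of a column (0.86), while its r with the column total was -0.06. The columns share libraries and the correlations are given as a description.

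Gene models overlap in the stretch, and whether counting used strand is not given in the sources used here. KDM2B overlaps RNF34 by 1527 bases and DIABLO overlaps B3GNT4 by 1290 bases, in both cases on opposite strands. DIABLO has a second gene entry of the same name on its strand, and a readthrough gene, AC048338.1, spans DIABLO and VPS33A, so the split of reads among these is uncertain. AC048337.1, opposite to ANAPC5, had 5 ethanol and 0 Nutlin-3 counts, and CLIP1-AS1 had 1 and 0. No gene with a row overlapped KNTC1.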

How the data were processed

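Single cells of NGP were profiled with the ddSeq device and the SureCell WTA 3' kit, per the labels' protocols. The authors deposited raw counts per gene and column, for 25693 human genes and 62 ERCC species. Aligner, build, annotation and cell filter: not given in the sources used here. Columns marked treated were taken as Nutlin-3 and those marked untreated as ethanol. The members, lists and alternatives were chosen with earlier results of these data known.

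Counts were summed per treatment without ERCC species and scaled with TMM factors (edgeR 4.0.16, R 4.3.3), 1.0005 for ethanol and 0.9995 for Nutlin-3. The filter on low counts (minimum 10) kept 14830 genes. Fold changes had 0.5 counts added, with exact binomial intervals. Scripts were tested on simulated data. Names and positions are from GENCODE release 29, which matched 25602 genes and whose build need not be the authors'. By rule, all members were named, the highest and lowest other gene of the stretch, the gene next to each end, and of each partner list the highest, the lowest and those past the size limit. Other genes were named after their values were seen. The lowest gene of 1 partner list is not reported here. Doublets were not called, as 1 line holds 1 cell type. Alternatives were DESeq2 1.42.0 size factors, no filter, ERCC library sizes, 5 added counts, thinning, classes of columns, other windows and counts per kb.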

Additional observations from a re-analysis of the deposited data

How the results depend on the processing

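No paired analysis was possible because no column names its library and each treatment is 1 pool, so leaving out a library could not be run either. With 1 member lower and 0 higher past 0.32 on the log2 scale, the count stayed so under size factors, no filter, 5 added counts, thinning and large columns alone. ERCC library sizes gave 10 lower and 0 higher, beside 84.9% and 0.237% of all genes tested, and shifted the median over 8844 genes to -0.48, that of the members to -0.49 and KNTC1 to -1.01. Because ERCC counts mix libraries of different dilution, that shift is not read as a change in RNA amount. Small columns gave 3 lower (KDM2B, ZCCHC8, KNTC1) and 1 higher (DIABLO), beside 26.2% and 26.4% of all genes. The 31 columns per treatment with names of their own gave 5 lower and 4 higher, beside 33.4% and 43.6% of all genes, from 2 to 27 counts a member and pool, with KNTC1 at -0.97 (-2.28 to 0.19). KNTC1 was the lowest member under all 9 settings. Changes of scaling (size factors, no filter, ERCC) shift all members alike, so they could not alter that order. Only settings that change the counts or columns could. For single members 63 of 80 fold changes stayed within the first interval and 17 left it, 10 of them by ERCC scaling and 7 in columns with names of their own. Size factors, no filter and 5 added counts, with 10 fold changes each, reuse the same pooled counts. Their values hardly moved and could scarcely leave the interval, so the tally is no measure of stability.

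The members' median percentile of 98.6 became 98.3 in small columns, 96.6 in columns with names of their own, 99.2 among all genes, 98.3 among filtered genes, 78.4 per kb of exons and 77.6 per kb of span. The highest window's ratio of 2.91 became 1.88 over 21 genes, 2.45 with filtered genes, 2.08 per kb of exons, 2.24 in large and 11 in small columns. The median share of columns with a member was 18.8% in ethanol and 19.3% in Nutlin-3 at 700 counts. In large columns at 700 counts it was 9.73% and 10.2%. Without thinning it was 75.8% and 70.4%, and at 350 counts 14.7% and 10.8%, so ethanol was the higher in both of these settings. The cause of these differences was not tested.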
